A study of Mus musculus with 18 samples.

Results

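The 10 genes followed here encode enzymes and partners that make or remove reactive oxygen species in mouse aorta. They are the oxidase genes Nox4, Cyba and Xdh, the superoxide dismutase genes Sod1, Sod2 and Sod3, the peroxide-removing enzyme genes Cat, Gpx1 and Gpx3, and Txnip, whose product binds thioredoxin. The members were taken as all array probe sets whose single gene symbol in the annotation is 1 of these names, which gave 17 of the 20380 probe sets with 1 gene symbol, and 10 of 12393 genes. Every sample came from male C57Bl/6 mice that had received spironolactone, which blocks the mineralocorticoid receptor, from a pellet under the skin at 20 mg/kg/day for 5 days, the vehicle groups included. The excised aortas were kept in DMEM as organ cultures, with vehicle or with 100 nM aldosterone, and were taken at 2, 4 or 8 h. Each sample pooled 3 aortas, and each of the 6 groups held 3 pools, described as biological replicates. The age of the animals is not given in the sources used here, and aorta without culture was not analysed here, so 2 h is the earliest time. Values are log2 expression estimates, and 1 unit is a 2-fold difference. A level can be compared between samples for 1 probe set, not between probe sets. Probe sets of 1 gene are numbered from the brightest, by mean over the 18 samples: Nox4, Sod1, Sod3, Cat and Txnip had 2 each, Sod2 had 3 and the other genes 1.

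NOX4 is an NADPH oxidase of smooth muscle, endothelium and fibroblasts that makes mostly hydrogen peroxide and is active without the cytosolic subunits of the phagocyte oxidase. It needs p22phox, the membrane subunit encoded by Cyba, whereas xanthine oxidoreductase, encoded by Xdh, makes superoxide and peroxide while it breaks down purines. SOD1 in the cytosol, SOD2 in mitochondria and SOD3 in the matrix of the vessel wall turn superoxide into peroxide, which catalase and the glutathione peroxidases remove, GPX1 inside cells and GPX3 after secretion. TXNIP holds thioredoxin in check and restrains glucose uptake, and its gene is known for a carbohydrate response element bound by MondoA and ChREBP. TXNIP binding leaves less free thioredoxin to reduce the peroxiredoxins. Aldosterone acting on the mineralocorticoid receptor is known to raise oxidative stress in blood vessels.

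The promoters of 3 members are printed first because Nox4 and Txnip gave the clearest courses in culture and Sod2 was an antioxidant enzyme that rose with and without hormone. Each line holds the 250 bases before the RefSeq start in GRCm38.p6, 5′ to 3′ on the gene's strand: Nox4 at chr7:87246399-87246648, Txnip at chr3:96557707-96557956 and Sod2 at chr17:13007589-13007838, all on the plus strand. Capitals mark a motif match.
Nox4: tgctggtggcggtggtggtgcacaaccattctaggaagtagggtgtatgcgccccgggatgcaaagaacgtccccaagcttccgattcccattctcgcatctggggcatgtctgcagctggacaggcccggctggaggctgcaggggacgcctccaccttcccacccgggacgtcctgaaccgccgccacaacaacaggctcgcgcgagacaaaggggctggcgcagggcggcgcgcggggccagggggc
Txnip: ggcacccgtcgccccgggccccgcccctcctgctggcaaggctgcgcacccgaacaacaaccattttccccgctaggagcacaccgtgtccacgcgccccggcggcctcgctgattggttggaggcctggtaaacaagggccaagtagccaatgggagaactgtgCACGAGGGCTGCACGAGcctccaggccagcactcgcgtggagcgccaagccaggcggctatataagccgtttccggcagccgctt
Sod2: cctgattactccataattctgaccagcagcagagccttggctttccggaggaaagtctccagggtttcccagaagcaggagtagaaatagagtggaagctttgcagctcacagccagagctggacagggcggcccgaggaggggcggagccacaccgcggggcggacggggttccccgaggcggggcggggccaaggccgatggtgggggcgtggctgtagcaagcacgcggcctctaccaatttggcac
Of the 10 members, 8 had an entry among the 32851 RefSeq promoters, and Xdh and Sod3 had none. Motifs were searched on both strands of the same 250 bases. The antioxidant response element core TGACNNNGC was in 10.2% of all promoters and in 1 of the 8 members, Sod1 (chr16:90220512-90220761, plus strand), as GCGTGGTCA from base -56 to -48, a match on the opposite strand. The palindromic corticosteroid response element, AGAACA and TGTTCT set 3 bases apart (0.00913% of promoters), 2 forms of the NF-kB element (0.14% and 0.0852%) and the E-box CACGTG (6.02%) were in 0 of the 8. The capitals in Txnip, from base -85 to -69, match the carbohydrate response element pattern CACGAG repeated after 5 bases, a pattern added after that promoter had been seen, which 1 of the 32851 promoters holds (0.00304%). No matches overlapped in these 8 promoters. Such matches describe letters and no site that was measured.

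Vehicle 2 h replicate 1 stood apart from its group. It had a median log2 value of 4.42, where the other 17 arrays lay between 4.01 and 4.09, and 1502 of 11236 probe sets in it differed by more than 1 from the mean of its 2 group mates, against 26 to 373 in the other arrays. Several results that depend on it are given with and without it, and this sample was singled out after its values had been seen. The 3′ minus 5′ signals of the Gapdh and beta-actin control probe sets, a sign of RNA integrity, gave two-sided exact permutation p of 0.5 to 1.0 between treatments at the 3 times, where 3 against 3 samples can reach 0.1. With hours in culture the Gapdh value moved, from 0.56-0.64 at 2 h to 0.36-0.53 at 8 h in vehicle and from 0.57-0.67 to 0.45-0.49 with aldosterone, without overlap, while the beta-actin values overlapped. Its part in the changes from 2 to 8 h was not tested. As bulk tissue was measured, fewer cells of a type and less RNA per cell cannot be told apart in any value below.

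All 17 member probe sets passed the filter applied to the table, a log2 value above 4 in at least 3 samples, which left 11236 probe sets to test. The third Sod2 probe set lay at that level, between 3.18 and 4.53 over the 18 samples. The plot of the members by sample shows the pattern that the comparisons below quantify: levels moved with hours in culture, and vehicle and aldosterone samples followed similar courses in most panels.

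**Figure D1:**
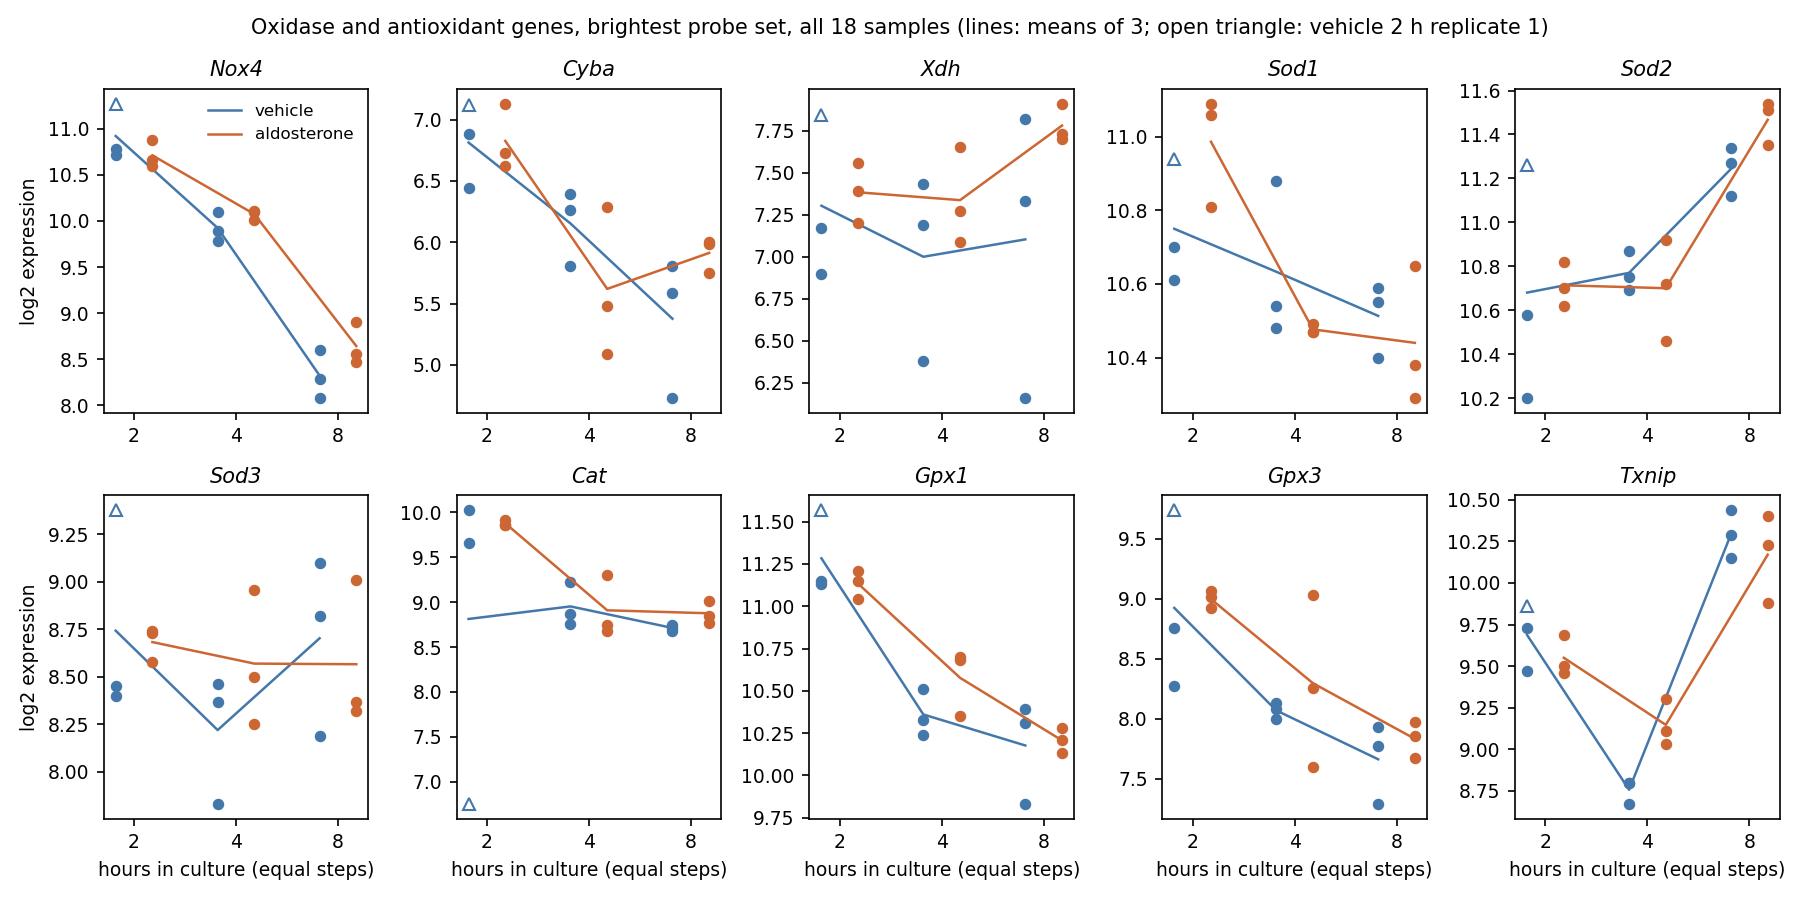
Log2 expression of the 10 genes (1 panel each, brightest probe set) against hours in culture (the 3 times drawn at equal steps), with each point 1 sample, lines through the means of 3 samples, vehicle in blue and aldosterone in orange, and an open triangle for vehicle 2 h replicate 1. Nox4 steps down from 10.71-11.27 at 2 h to 8.08-8.60 at 8 h in vehicle, Txnip is lowest at 4 h, and in Cat the triangle at 6.75 lies far below the other vehicle 2 h samples.

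The study asked what aldosterone changed in the vessel. Among the 10 genes no probe set passed the threshold at any time: with limma and Benjamini-Hochberg adjustment over 11236 probe sets, 0 of 17 had an adjusted p under 0.05 at 2, 4 or 8 h, with smallest adjusted p of 0.363, 1.0 and 0.807, and 1, 1 and 0 had an unadjusted p under 0.05. Over all probe sets tested, 0.0712%, 0.222% and 1.01% passed at the 3 times, and 11.0%, 3.61% and 6.54% had an unadjusted p under 0.05, so the members' counts lie near the background and are no result about these genes. Without vehicle 2 h replicate 1 the counts were again 0 of 17, where 0.324%, 0.404% and 1.63% of all probe sets passed. In that fit 3, 1 and 2 of the 17 had an unadjusted p under 0.05, and so had 1525, 713 and 1114 of all 11126 probe sets. As a check of the treatment, Fkbp5, a corticosteroid-induced co-chaperone that is no member, did not pass at 2 h (0.17 ± 0.26 SE, adjusted p = 0.831) and was 3.73-fold higher with aldosterone at 4 h (1.90 ± 0.26, adjusted p = 0.00298) and 6.96-fold higher at 8 h (2.80 ± 0.26, adjusted p = 9.48e-06). For the average over the 3 times 0 of 17 passed (smallest adjusted p = 0.558, 1 with an unadjusted p under 0.05, where 1.14% and 8.38% of all probe sets did so), and in limma's F test that the effect differs between times 0 of 17 passed (smallest adjusted p = 0.779, 1 unadjusted, where 0.151% and 5.77% of all did so). Without vehicle 2 h replicate 1, 0 of 17 again passed for the average and for this F test (smallest adjusted p = 0.248 and 0.49). In that fit 4 and 2 of the 17 had an unadjusted p under 0.05, and so had 14.2% and 8.78% of all probe sets. With all samples the members' median difference was -0.05, 0.17 and 0.03 at 2, 4 and 8 h, where that of all probe sets was -0.08, 0.01 and 0.01.

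The intervals say how large an effect the data leave room for. Of the 51 differences between aldosterone and vehicle (17 probe sets at 3 times), 40 had a 95% interval that stayed within 1 log2 unit, or 2-fold, in both directions, and the other 11 belonged to Cat, Cyba, Sod3 and Xdh. For the average over times 16 of 17 stayed within it, and the exception was the first Cat probe set. Its average was 0.39 with all samples and 0.05 ± 0.09 without vehicle 2 h replicate 1. At each time its standard error was 0.52 with all samples, and 0.15 to 0.17 without that sample. Aldosterone and vehicle samples did not overlap in 3, 1 and 3 of the 17 probe sets at 2, 4 and 8 h, where 14.6%, 10.3% and 14.6% of all probe sets did not overlap, so these counts also lie near the background.

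**Figure D2:**
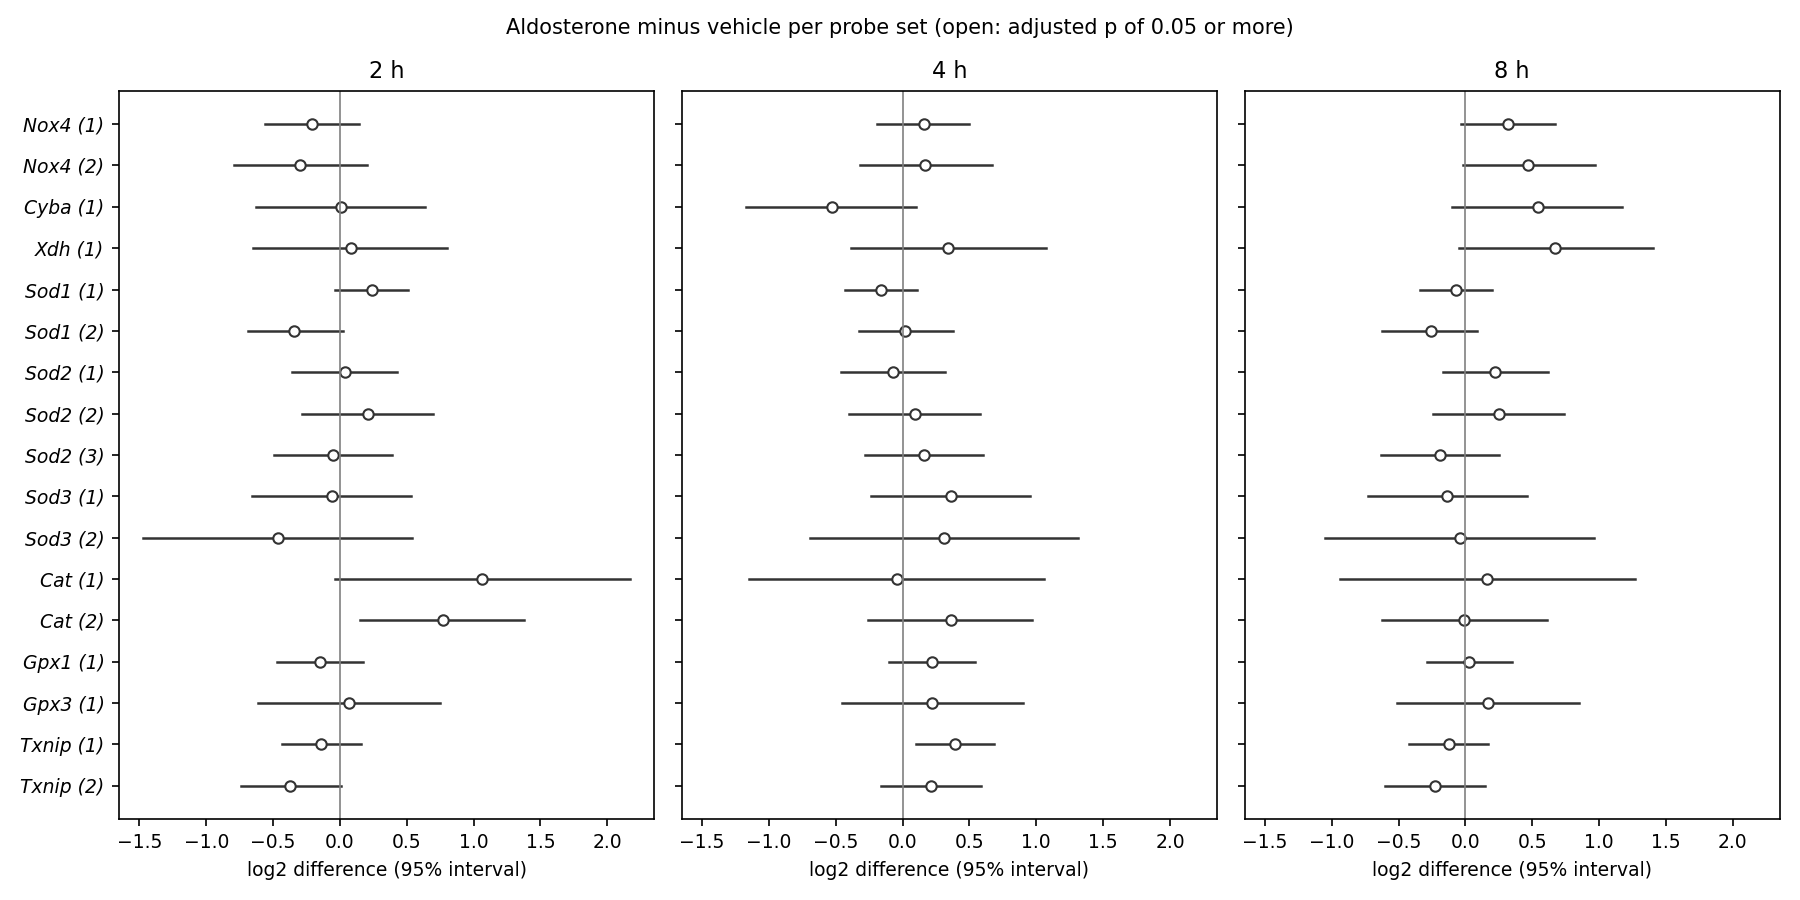
Difference between aldosterone and vehicle (log2, points) with its 95% interval (bars) for the 17 probe sets at 2, 4 and 8 h, numbered by brightness within a gene and all drawn open because no adjusted p was under 0.05. The point estimates run from -0.53 to 1.06. The widest intervals belong to the first Cat probe set, whose standard error depends on vehicle 2 h replicate 1.

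Among the oxidases Nox4 and Xdh lay close together at 8 h, and neither passed. In the limma fit the unadjusted p was 0.0671 and 0.0606 for the 2 Nox4 probe sets, 0.0676 for Xdh and 0.0922 for Cyba. The first Nox4 probe set read 8.29, 8.60 and 8.08 in vehicle and 8.56, 8.90 and 8.47 with aldosterone, which overlap. Its difference was 0.32 ± 0.16 (95% interval -0.03 to 0.67, adjusted p = 0.825). The second Nox4 probe set read 6.96, 7.22 and 6.87 against 7.38, 7.70 and 7.4, which do not overlap, with a difference of 0.47 ± 0.24 (-0.02 to 0.97, adjusted p = 0.807). Without vehicle 2 h replicate 1, which enters at 8 h through the shared spread, limma gave the same differences with adjusted p of 0.408 and 0.205. At 2 h the Nox4 probe sets gave -0.21 and -0.30, or -0.04 and 0.06 without vehicle 2 h replicate 1, none past the threshold. Xdh at 8 h read 7.82, 7.33 and 6.16 in vehicle and 7.70, 7.73 and 7.91 with aldosterone, which overlap (0.67 ± 0.35, adjusted p = 0.828). Cyba gave -0.53 ± 0.30 at 4 h and 0.54 ± 0.30 at 8 h, neither past the threshold (adjusted p = 1.0 and 0.904), and the test of a difference between times gave an adjusted p of 0.901.

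The smallest unadjusted p-values among the enzymes that remove peroxide belonged to catalase at 2 h. The second probe set read 6.31, 7.37 and 7.55 in vehicle and 7.81, 7.62 and 8.10 with aldosterone, without overlap, and the difference was 0.77 ± 0.29 (unadjusted p = 0.0177, adjusted p = 0.363). Its low value is vehicle 2 h replicate 1, and without that sample the difference was 0.38 ± 0.25 (adjusted p = 0.54). The first Cat probe set gave 1.06 ± 0.52 with that sample and 0.03 ± 0.17 without it. Txnip at 4 h read 8.67, 8.80 and 8.80 in vehicle and 9.30, 9.03 and 9.11 with aldosterone by the first probe set, again without overlap (0.39 ± 0.14, unadjusted p = 0.0125, adjusted p = 1.0). Its second probe set overlapped at 7.51, 7.43 and 7.56 against 7.72, 7.49 and 7.93 (0.21 ± 0.18). By the first probe set this 4 h difference was smaller than the vehicle fall from 2 to 4 h and the later rises, described below. It was close in size to the fall from 2 to 4 h with aldosterone (-0.40).

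For the superoxide dismutases, which clear superoxide in 3 compartments, the hormone differences over the 3 times ran from -0.34 to 0.24 for the 2 Sod1 probe sets, from -0.19 to 0.25 for the 3 Sod2 probe sets and from -0.46 to 0.36 for the 2 Sod3 probe sets. Gpx1 gave -0.15, 0.22 and 0.03 and Gpx3 gave 0.07, 0.22 and 0.17 at 2, 4 and 8 h. At 2 h several of these depended on vehicle 2 h replicate 1. With that sample left out the 2 h differences were 0.32 and 0.49 for the first and second Sod2 probe sets, 0.26 and 0.02 for those of Sod3, 0.33 and -0.35 for those of Sod1, 0.48 for Gpx3 and 0.00 for Gpx1. None of the values passed the threshold with or without it, which does not show that the enzymes were equal in both treatments.

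Time in culture changed most of the members, as it changed most of the 11236 probe sets tested. From 2 to 8 h in vehicle, Nox4, Cyba, Gpx1, Gpx3 and 1 Sod1 probe set fell and Sod2 and Txnip rose: 9 of 17 probe sets passed the threshold, 6 lower and 3 higher, in 7 genes, where of all probe sets 56.3% passed, 30.7% lower and 25.6% higher. With aldosterone 12 of 17 passed, 8 lower and 4 higher, in 9 genes, where 54.7% of all passed, 25.9% lower and 28.8% higher. These counts follow the background in vehicle and lie somewhat above it with aldosterone, and they are read here as a description of the genes. The same 9 probe sets passed in the same direction in both courses (6 lower in 5 genes, 3 higher in 2 genes), as did 5126 of all 11236 (45.6%). The 2 courses share no sample but share 1 estimate of spread. Without vehicle 2 h replicate 1 the counts were 12 and 14 of 17, against 58.7% and 62.2% of all probe sets. Median centring of the arrays moved the median difference of all probe sets in vehicle from -0.07 to 0.10, and turned the split of all calls from 2882 higher and 3447 lower to 3764 higher and 2852 lower. From 2 to 4 h in vehicle it turned the split from 1563 higher and 2537 lower to 2283 higher and 2065 lower.

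**Figure D3:**
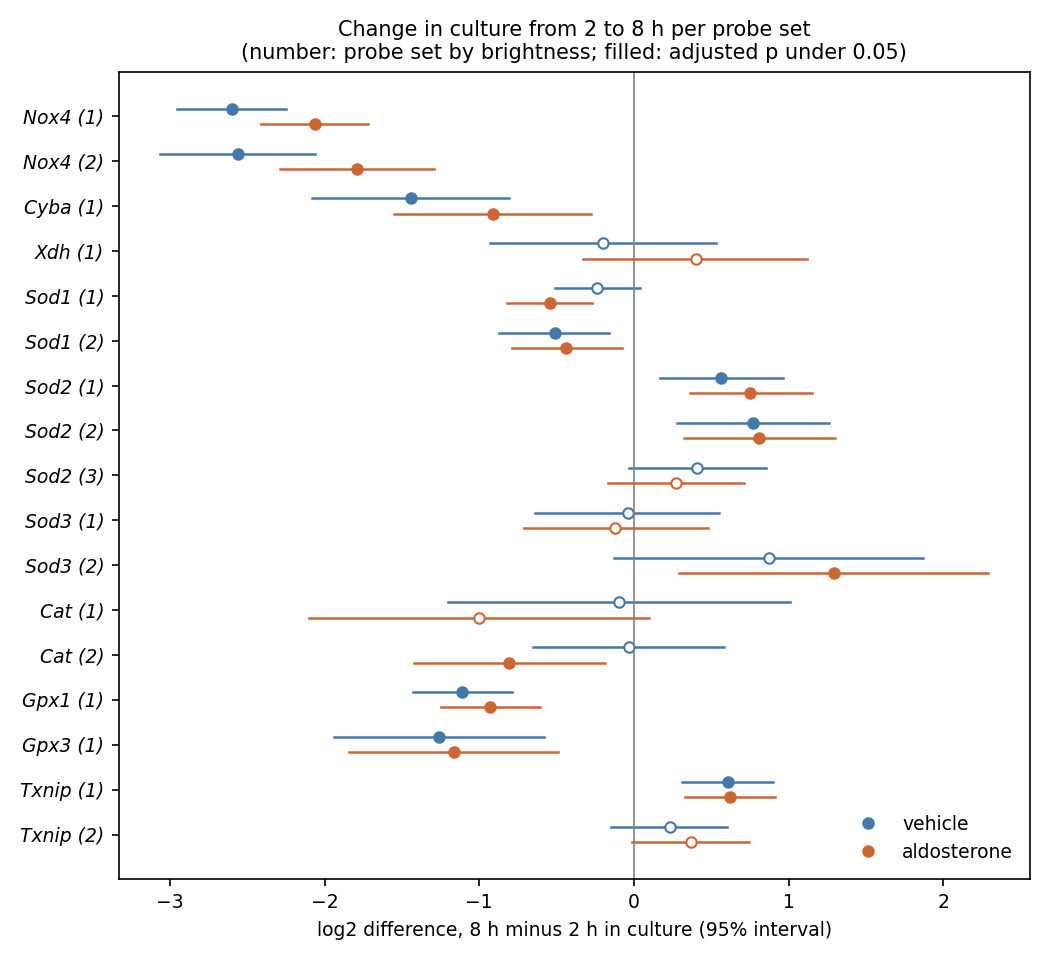
Change from 2 to 8 h (log2 difference, points) with its 95% interval (bars) for each of the 17 probe sets, numbered by brightness within a gene, in vehicle (blue) and with aldosterone (orange), filled where the adjusted p was under 0.05. The Nox4 probe sets lie farthest to the left, at -2.60 and -2.56 in vehicle, and Sod2, Txnip and 1 Sod3 probe set lie to the right.

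Nox4 fell at every step and furthest of the 10. By the first probe set the vehicle samples read 11.27, 10.78 and 10.71 at 2 h, then 9.89, 10.10 and 9.78 at 4 h, then 8.29, 8.60 and 8.08 at 8 h. The aldosterone samples read 10.66, 10.88 and 10.59, then 10.10, 10.01 and 10.11, then 8.56, 8.90 and 8.47. In both courses no sample of a later time reached any sample of an earlier one.

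From 2 to 8 h this was a 6.05-fold fall in vehicle (-2.60 ± 0.16, adjusted p = 9.74e-10) and a 4.18-fold fall with aldosterone (-2.06 ± 0.16, adjusted p = 1.71e-08). Both steps passed in both courses, with -1.0 from 2 to 4 h and -1.60 from 4 to 8 h in vehicle and -0.63 and -1.43 with aldosterone. The second probe set followed, at -2.56 ± 0.24 in vehicle and -1.79 ± 0.24 with aldosterone. In vehicle these falls ranked 179 and 188 among the 11236 probe sets, counted from the lowest. The estimated fall was smaller with aldosterone by both probe sets, but in limma's F test the difference in hormone effect between times did not pass (adjusted p = 0.921 for each). Without vehicle 2 h replicate 1, the highest of its group, the vehicle falls were -2.42 and -2.21.

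Cyba, the partner subunit of NOX4, fell as well. Its 1 probe set read 7.12, 6.88 and 6.44 in vehicle at 2 h and 5.81, 5.59 and 4.73 at 8 h, without overlap, a 2.72-fold fall (-1.44 ± 0.30, adjusted p = 0.000587). With aldosterone it read 7.13, 6.62 and 6.73 at 2 h, 5.09, 6.29 and 5.48 at 4 h and 5.75, 6.00 and 5.99 at 8 h. That course had its fall by 4 h (-1.20 ± 0.30, adjusted p = 0.0052) and stood 1.88-fold lower at 8 h than at 2 h (-0.91 ± 0.30, adjusted p = 0.016). Xdh did not pass in either course, at -0.20 ± 0.35 in vehicle and 0.40 ± 0.35 with aldosterone, and its vehicle samples at 8 h spread from 6.16 to 7.82.

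Of the superoxide dismutases, the mitochondrial Sod2 rose from 2 to 8 h. By the first probe set it lay at 10.69 to 10.87 in vehicle and 10.46 to 10.92 with aldosterone at 4 h, and stood at 11.34, 11.27 and 11.12 and at 11.35, 11.54 and 11.51 at 8 h, above every 4 h sample. From 4 to 8 h it passed with aldosterone (0.77 ± 0.19, adjusted p = 0.00403) and did not in vehicle (0.47 ± 0.19, adjusted p = 0.0574), where the second probe set passed (0.66 ± 0.23, adjusted p = 0.036), a call lost in 6 of 26 alternatives. Over the whole course the difference was 0.56 ± 0.19 in vehicle (adjusted p = 0.0161) and 0.75 ± 0.19 with aldosterone (adjusted p = 0.00241), and by the second probe set it was 0.77 ± 0.23 and 0.81 ± 0.23 (adjusted p = 0.0094 and 0.00718). The vehicle 2 h samples, at 11.26, 10.20 and 10.58, overlap those at 8 h through replicate 1. Without that sample the vehicle rise was 0.85 ± 0.13 and 1.05 ± 0.21. The third Sod2 probe set, near the filter level, did not pass from 2 to 8 h.

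Cytosolic Sod1 fell slightly. By the first probe set it read 10.81, 11.09 and 11.06 with aldosterone at 2 h and 10.29, 10.38 and 10.65 at 8 h, a fall of 1.46-fold (-0.54 ± 0.13, adjusted p = 0.00173), while in vehicle the difference of -0.24 ± 0.13 did not pass (adjusted p = 0.128). The second Sod1 probe set passed in both courses, at -0.51 ± 0.17 and -0.44 ± 0.17 (adjusted p = 0.0159 and 0.0359), though its vehicle fall was -0.35 and did not pass after median centring. The probe sets of extracellular Sod3 disagreed. By the first it differed by -0.04 ± 0.28 and -0.12 ± 0.28 from 2 to 8 h. By the second it rose 2.45-fold with aldosterone, from 5.42, 5.19 and 5.85 to 6.52, 7.37 and 6.45 (1.29 ± 0.48, adjusted p = 0.0292), and gave 0.87 ± 0.48 in vehicle (adjusted p = 0.129), or 1.36 ± 0.47 without vehicle 2 h replicate 1 (adjusted p = 0.0195).

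Both glutathione peroxidases fell in both courses. Gpx1, the peroxidase inside cells, read 11.57, 11.15 and 11.13 in vehicle at 2 h, 10.33, 10.51 and 10.24 at 4 h and 10.39, 10.31 and 9.83 at 8 h. Most of its fall had taken place by 4 h (-0.92 ± 0.15, adjusted p = 0.000204), and from 2 to 8 h it was 2.15-fold (-1.11 ± 0.15, adjusted p = 8.82e-06). With aldosterone Gpx1 fell 1.90-fold over the same hours (-0.93 ± 0.15, adjusted p = 5.88e-05).

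Gpx3, the secreted peroxidase, read 9.74, 8.27 and 8.76 in vehicle at 2 h and 7.93, 7.77 and 7.29 at 8 h, a fall of 2.40-fold (-1.26 ± 0.32, adjusted p = 0.00298). With aldosterone it went from 9.01, 8.92 and 9.06 to 7.67, 7.97 and 7.86, a fall of 2.24-fold (-1.16 ± 0.32, adjusted p = 0.00536). In neither course did the 2 and 8 h samples overlap. Without vehicle 2 h replicate 1, which gave the highest Gpx3 value, the vehicle fall was -0.85 ± 0.28 (adjusted p = 0.0159). The vehicle fall from 2 to 4 h, -0.85 ± 0.32 with all samples (adjusted p = 0.0464), was -0.44 ± 0.28 without it and did not pass (adjusted p = 0.238).

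The course of catalase depends on 1 sample. By the first probe set the vehicle samples read 6.75, 9.66 and 10.03 at 2 h, 8.76, 8.87 and 9.23 at 4 h and 8.75, 8.71 and 8.68 at 8 h, and the aldosterone samples 9.86, 9.86 and 9.92, then 9.30, 8.75 and 8.68, then 9.01, 8.85 and 8.77. The value of 6.75 is vehicle 2 h replicate 1, far under its group mates (-3.09 from their mean), and 40 of the 11236 probe sets were lower there by more than 3. The other 5 samples at 2 h all lie above all 12 later ones.

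With all samples the change from 2 to 8 h did not pass in vehicle (-0.10 ± 0.52, adjusted p = 0.889) or with aldosterone (-1.0 ± 0.52, adjusted p = 0.118), with 1 spread shared by both courses. Cat fell without vehicle 2 h replicate 1, 2.19-fold in vehicle (-1.13 ± 0.17, adjusted p = 2.18e-05) and 2.0-fold with aldosterone (-1.0 ± 0.15, adjusted p = 2.16e-05). By the second probe set the aldosterone course passed with all samples, at -0.81 ± 0.29 (adjusted p = 0.0264), and the vehicle course gave -0.03 ± 0.29, or -0.42 ± 0.25 without replicate 1, neither past the threshold.

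Txnip dipped and then rose in both courses. By the first probe set the vehicle samples read 9.86, 9.47 and 9.73 at 2 h, 8.67, 8.80 and 8.80 at 4 h and 10.29, 10.44 and 10.15 at 8 h. The aldosterone samples read 9.50, 9.46 and 9.69, then 9.30, 9.03 and 9.11, then 10.23, 10.40 and 9.88. In both courses every 4 h sample lay below every 2 h sample and every 8 h sample above both.

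In vehicle the dip was -0.93 ± 0.14 (adjusted p = 8.52e-05) and the rise from 4 to 8 h 2.90-fold (1.54 ± 0.14, adjusted p = 4.98e-07), which ranked 194 from the highest of 11236. With aldosterone the dip was -0.40 ± 0.14 (adjusted p = 0.0326, lost in 5 of 28 alternatives) and the rise 2.03-fold (1.02 ± 0.14). The second probe set gave -1.19 ± 0.18 and 1.42 ± 0.18 in vehicle and -0.61 ± 0.18 and 0.98 ± 0.18 with aldosterone, all past the threshold. Dip and rise were estimated as smaller with aldosterone, but the F test of a hormone effect that differs between times gave an unadjusted p of 0.0246 and 0.0807 for the 2 probe sets, and adjusted p of 0.779 and 0.912. At 8 h the first probe set was 1.52-fold and 1.54-fold higher than at 2 h (0.61 ± 0.14 and 0.62 ± 0.14, adjusted p = 0.00136 and 0.00113), and the second did not pass (0.23 ± 0.18 and 0.37 ± 0.18), though it passed in both courses without vehicle 2 h replicate 1 (0.47 and 0.37).

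The step from 2 to 4 h held no rise among the members. In vehicle 6 of 17 probe sets fell in 4 genes (Nox4, Gpx1, Gpx3 and Txnip), where 36.5% of all probe sets passed and 22.6% fell, and with aldosterone 8 of 17 fell in 6 genes (Nox4, Cyba, Sod1, Cat, Gpx1 and Txnip), where 35.1% passed and 18.2% fell. The members' median difference was -0.53 and -0.51, and that of all probe sets -0.11 and -0.01. Without vehicle 2 h replicate 1, 8 passed in vehicle (37.0% of all probe sets), now with Cat and without Gpx3, and 1 of them was higher, the first Sod2 probe set at 0.38 ± 0.13. With aldosterone 10 then passed, all lower (44.8%). From 4 to 8 h the directions split: 5 of 17 passed in vehicle, with Nox4 lower and Txnip and the second Sod2 probe set higher (35.4% of all probe sets), and 6 of 17 with aldosterone in the same 3 genes (35.3%). Without vehicle 2 h replicate 1, which enters this step through the shared spread, the 4 to 8 h counts were 9 and 8, against 45.5% and 45.6%.

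Genes that work with these enzymes were taken from a list of 71 in 4 groups, of which 56 had a probe set with 1 gene symbol and 46 passed the filter. In the limma fit 0 of the 46, each by its brightest probe set, passed between aldosterone and vehicle at 2, 4 or 8 h. Of all probe sets 0.0712%, 0.222% and 1.01% passed, so this count is no result about these genes. An unadjusted p under 0.05 was found for 7, 2 and 2 of the 46, and for 11.0%, 3.61% and 6.54% of all probe sets. From 2 to 8 h 31 of 46 passed in vehicle (19 higher, 12 lower) and 34 with aldosterone (18 higher, 16 lower), where 56.3% and 54.7% of all probe sets passed. The genes here and in the groups below were counted by 1 probe set each. The shares count every probe set tested, so the units differ. The list medians were 0.24 and 0.06 beside -0.07 and 0.03 for all probe sets. By the rule for naming, Glrx, a glutaredoxin that reduces glutathione-bound proteins, rose 9.07-fold in vehicle (3.18 ± 0.16, adjusted p = 3.95e-11) and 9.56-fold with aldosterone. Srxn1, the sulfiredoxin that repairs peroxiredoxins, rose 5.97-fold and 5.42-fold. Slc7a11, the cystine carrier that feeds glutathione synthesis, lay under the filter level in every sample at 2 h and was at least 3.55-fold and 3.93-fold higher at 8 h, against that level.

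Of the 17 peroxidase, thioredoxin and glutaredoxin partners, 5 rose and 7 fell in vehicle and 4 rose and 8 fell with aldosterone. Of the 4 measured oxidase subunits and other oxidases, 2 rose in vehicle, and 1 rose and 1 fell with aldosterone. Of the 6 genes of copper delivery and arrestin relatives, 1 rose and 2 fell in vehicle, and 2 rose and 1 fell with aldosterone. The group of glutathione, NADPH and haem enzymes had 11 of 19 higher and 3 lower in vehicle and 11 higher and 6 lower with aldosterone. For these group counts the shares of all probe sets were 25.6% higher and 30.7% lower in vehicle and 28.8% higher and 25.9% lower with aldosterone. Among them Nqo1, a quinone reductase, rose 5.71-fold in vehicle and 6.49-fold with aldosterone. Its rise came after 4 h (2.96 ± 0.19 from 4 to 8 h in vehicle and 2.71 ± 0.19 with aldosterone). Gclm, a subunit of the enzyme that makes the glutathione precursor, rose 3.79-fold in vehicle and 5.04-fold with aldosterone. Gstp1, a glutathione transferase, rose 3.38-fold and 3.07-fold from 4 to 8 h. Hmox1, the inducible haem oxygenase, had risen 5.34-fold in vehicle and 5.6-fold with aldosterone by 4 h. Nox4 and Gpx1 fell over the same step, and the order within it cannot be read. Txnrd1, the thioredoxin reductase, rose 1.82-fold and 2.02-fold by 4 h, while Gpx7, a peroxidase of the endoplasmic reticulum, fell by 4 h in both courses (-0.97 ± 0.18 in vehicle and -1.36 ± 0.18 with aldosterone, adjusted p = 0.000466 and 2.1e-05).

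Both comparisons of near relatives that follow were chosen after their values were seen. Arrdc4, the arrestin-family relative of Txnip, was under the filter level in all 2 and 4 h samples (3.17 to 3.99) and at 4.01 to 5.48 in vehicle and 4.79 to 5.51 with aldosterone at 8 h, at least 1.98-fold and 2.20-fold higher, so it shared the late rise of Txnip and a dip below that level could not be read. Rac1, a small GTPase that activates the oxidases of phagocytes and NOX1, rose 2.11-fold in both courses while Nox4 and Cyba fell. Of the phagocyte-type oxidase genes on the list, Cybb, Ncf1, Ncf4, Rac2 and Noxo1 were below the filter.

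**Figure D4:**
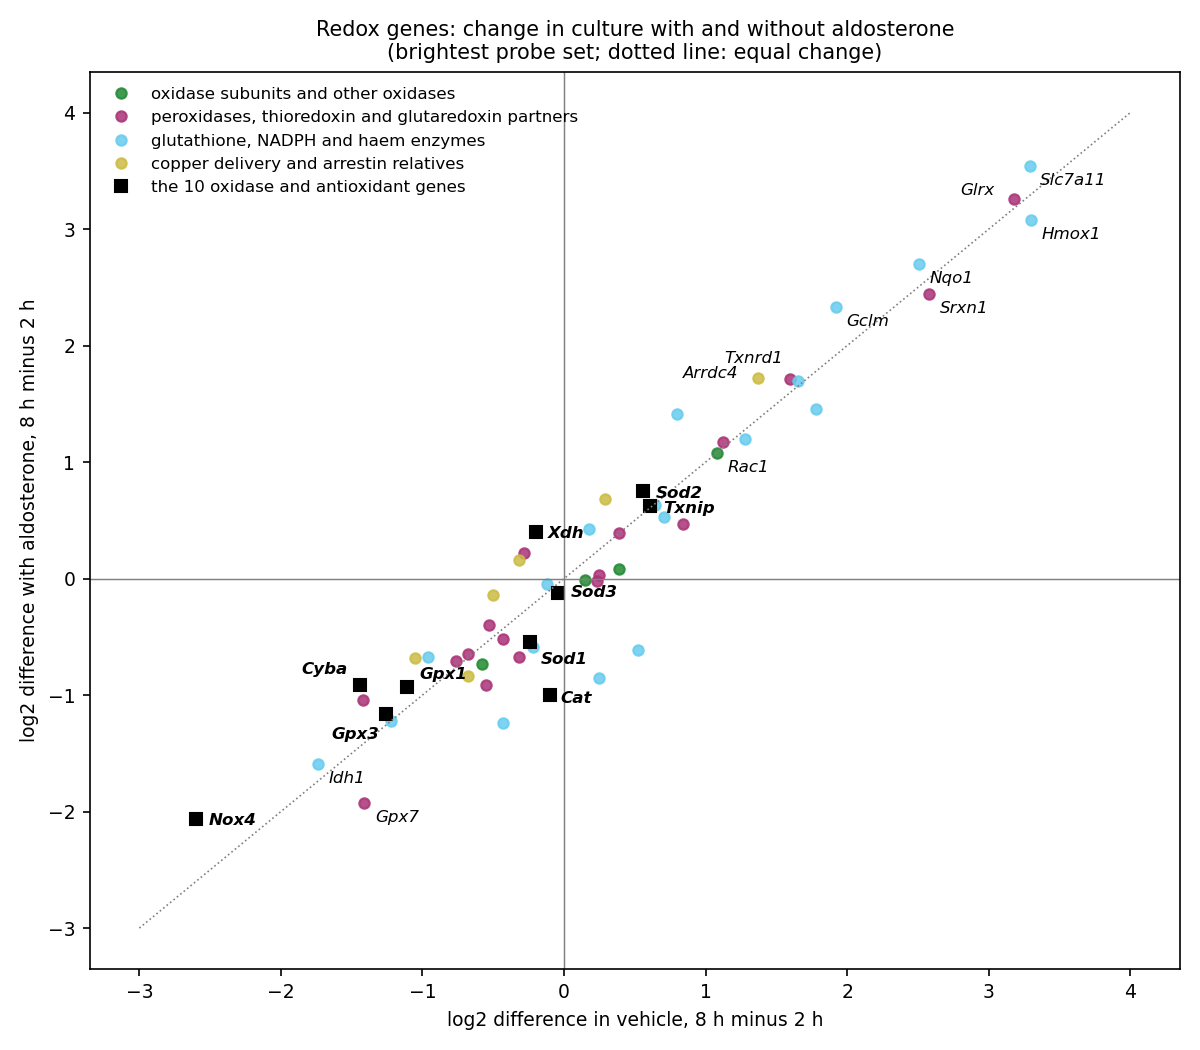
Change from 2 to 8 h in vehicle (horizontal axis, log2) against the change with aldosterone (vertical axis, log2) for the 10 members (black squares) and the 46 partner genes (coloured by group), by brightest probe set, with equal change on the dotted line. Nox4 lies at the lower left at -2.60 and -2.06, the other falling members lie between it and the origin, and Glrx, Slc7a11, Hmox1, Srxn1, Nqo1 and Gclm lie at the upper right; Slc7a11 and Arrdc4 are drawn at fitted values although they lay under the filter level at 2 h.

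Cell type markers moved with hours in culture as well, and their part in the results above was not tested. For the counts that follow, by 1 probe set per marker, 30.7% of all probe sets were lower and 25.6% higher from 2 to 8 h in vehicle. With aldosterone 25.9% were lower and 28.8% higher. All 6 adventitial fibroblast markers fell from 2 to 8 h in both courses, their summed level going from 13.82-14.41 to 12.74-13.11 in vehicle and from 13.90-14.07 to 12.96-13.22 with aldosterone on the log2 scale. Of 6 smooth muscle markers, 4 fell and 1 rose in vehicle and 4 fell with aldosterone, the sum going from 15.55-16.04 to 15.12-15.36 and from 16.08-16.15 to 14.98-15.21. Of the endothelial markers 3 of 5 past the filter fell in both courses, with sums from 9.65-10.69 to 8.71-8.96 and from 9.49-9.96 to 8.55-9.22, and 1, Cdh5, rose with aldosterone. Of the macrophage markers 3 of 5 fell and 1, Cd14, rose in both courses, with sums from 10.17-11.15 to 9.34-9.98 and from 10.35-10.58 to 9.58-9.73. All 3 adipocyte markers past the filter fell, with sums from 11.14-12.24 to 9.41-9.99 and from 11.70-12.05 to 10.01-10.45. Of the red blood cell and lymphocyte markers 1 each passed the filter, and 1, Alas2, fell with aldosterone.

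The defining genes of the tissue were there: Acta2, the smooth muscle actin, lay between 13.80 and 14.94 in the 18 samples. Tie1, Itgam, Lep, Hba-a1, Cd3e, Cd3g and Cd79a lay under 4 in every sample, so no signal above the filter level was read from these endothelial, myeloid, fat, red cell and lymphocyte genes. In vehicle 2 h replicate 1, where Cat was low, the smooth muscle sum was 15.55, the lowest of its group, and the sums of the endothelial (10.69), fibroblast (14.41), macrophage (11.15) and adipocyte (12.24) markers were the highest. With aldosterone against vehicle, 0 of the markers in these lists passed at 2, 4 or 8 h in the limma fit, and 1, 0 and 2 had an unadjusted p under 0.05. Of all probe sets 0.0712%, 0.222% and 1.01% passed, and 11.0%, 3.61% and 6.54% had an unadjusted p under 0.05. The count of 0 is therefore no result about the markers.

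Over the 18 samples the non-member probe sets most like the first one of Nox4 were those of Limch1 and Reck (Pearson r = 0.993 each) and Zbtb20 (0.992), and 803 probe sets had an r over 0.9. For Gpx1 the closest were Itga9 (0.982), Smpd1 (0.967) and Adk (0.963), with 416 over 0.9. Txnip had fewer likenesses, with Pnpla8 (0.942), Pla2g4a (0.931) and Ciao2a (0.921), and 14 over 0.9, and Cyba had 5, led by Maged2 (0.94), Cd99 (0.93) and Fuca1 (0.909). These values describe samples that share culture times, and carry no test. Probe sets of 1 gene followed each other closely for Nox4 (r = 0.98 over 18 samples), Sod2 (0.95 for the first and second) and Txnip (0.9), less for Cat (0.73) and Sod3 (0.7) and little for Sod1 (0.41).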

How the data were processed

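RNA of the 18 samples was measured on 1-colour Affymetrix arrays. The authors deposited log2 expression values, which the submitters' processing notes credit to GCRMA. Its version and settings are not stated in those sources. Of 22690 probe sets in the table, 64 were array controls. The array annotation gave 1 gene symbol to 20380, several to 691 and none to 1555 others, and 20351 of the 20380 matched RefSeq by gene identifier. Raw array files were not used here.

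With limma 3.58.1 in R 4.3.3, 1 mean for each of the 6 groups was fitted to the 11236 probe sets with a log2 value above 4 in at least 3 samples, with an intensity trend (12 residual and 17.1 total degrees of freedom, median within-group SD 0.241). Benjamini-Hochberg adjustment covered all 11236, and results with an adjusted p under 0.05 passed. Errors beside differences are standard errors from that shared spread. Precision is limited by the number of arrays, 3 in a group. The fit was tested on simulated data. The sample titles number the replicates without saying whether a number pairs samples of different groups. Of 45 same-number pairs of samples from different groups, 5 had deviations correlated over 0.1 (median -0.008, highest 0.283). Of 90 pairs with different numbers, 10 did (median 0.003, highest 0.184). Whether the numbers pair the samples is therefore not known.

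The members and gene lists were chosen with earlier results of these data known. All 10 members were named with all probe sets, and of the partner list up to 4 genes past the threshold with the smallest p per comparison. A gene's brightest probe set has the highest mean over the 18 samples. Where every sample of a group lay under the filter level, a fold is a lower bound against that level. For the 4 members with the smallest p in a test over the 6 groups, the 3 most correlated probe sets of other genes were named. Promoters came from RefSeq GRCm38.p6, and promoter letters beyond the start were left out. The alternatives comprised a trend-free prior, no filter or a filter at 6, 1 probe set per gene or their mean, quantile normalization, median centring, array weights, a replicate block, the groups compared alone, and each sample left out in turn.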

Additional observations from a re-analysis of the deposited data

How the results depend on the processing

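For the aldosterone effect 0 of the 68 member results (each probe set at each time and on average) passed the threshold under any alternative. The fit to the groups compared alone was not run for the average over times or for the test between times. Of the 46 changes in culture past the threshold, 29 kept their call in every alternative that gave a value. In at least 1 alternative 17 lost it. Of the 124 results not past the threshold, 21 passed in some alternative, and all 21 were changes in culture. The 124 include the 68 aldosterone results, of which 0 passed. Lost most often was Gpx3 from 2 to 4 h in vehicle, in 19 of 28 alternatives. Lost in 6 were the second probe sets of Nox4 from 2 to 4 h with aldosterone and of Sod2 from 4 to 8 h in vehicle. Lost in 5 were the first Txnip probe set from 2 to 4 h with aldosterone and, from 2 to 8 h, the second probe sets of Sod1 (both courses) and Cat (with aldosterone). The other 10 were lost in 1 to 4. The cause was not tested except as stated.

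The change of the first Cat probe set from 2 to 4 h in vehicle turned from 0.14 to -0.93 with array weights, and ran from -0.89 to 0.75 with each sample left out. The -0.89 is the value without vehicle 2 h replicate 1, the sample those weights count least (0.091). Counts from 4 to 8 h in vehicle were 5 probe sets, and 8 after quantile normalization, median centring or array weights. By brightest probe set they were 2 genes, and 4 with a filter at 6, averaged probe sets or quantile normalization. From 4 to 8 h with aldosterone 3 genes passed, and 5 in the fit to the groups compared alone.

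Leaving out each sample in turn gave 4 to 9 probe sets (2 to 4 genes) from 4 to 8 h in vehicle, with 9 and 4 reached without vehicle 2 h replicate 1. From 2 to 4 h with aldosterone it gave 4 to 10 probe sets (3 to 7 genes) around 8 and 5, with 5 probe sets without aldosterone 2 h replicate 3 and 4 without aldosterone 4 h replicate 3. From 2 to 8 h it gave 6 to 12 around 9 in vehicle and 8 to 14 around 12 with aldosterone. With the replicate block the counts from 2 to 8 h were 9 and 12, and from 4 to 8 h in vehicle 6. Whether the numbers pair the samples is not known. No signal over background was given, so dim probe sets are limited by the filter level alone.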
